A study of Mus musculus with 6 samples.

Results

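The genes described here are 55 mouse genes of G2, mitosis and cytokinesis, taken by symbol from a table of 23282 gene rows of RNA-seq counts. Each symbol matched 1 row. The counts came from 6 libraries of TC-1, a tumour line made from mouse lung cells with human papillomavirus oncogenes and activated ras, which the labels call lung adenocarcinoma. Cells had received 20 ng/ml recombinant murine interferon-gamma (IFN-gamma) for 72 h (3 libraries) or had been left untreated over the same time (3 libraries). All libraries come from this 1 line, whose other alleles the labels do not give, and no label says whether replicates were separate cultures, so p-values measure only the spread between these samples. Libraries held between 8511379 and 10861336 counts with IFN-gamma and between 7302687 and 9350991 counts without.

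The treatment was visible in the libraries. Irf1, a transcription factor gene that IFN-gamma induces, had 899.9 ± 19 CPM in IFN-gamma libraries and 72.9 ± 9.2 CPM in untreated libraries (SD, n = 3 each). CPM are counts per 1000000, here scaled with the trimmed mean of M-values (TMM) so that levels and fold changes share 1 scale. Of 12 lung epithelial markers 9 stayed under 1 CPM in every library, among them Sftpb and Sftpa1 with 0 counts and Epcam, Cdh1, Sftpc and Nkx2-1 with at most 6 counts. The list summed to between 8.82 and 10.6 CPM in IFN-gamma libraries and between 16.7 and 18.9 CPM in untreated libraries, mostly from Krt19, which fell by 0.81 ± 0.20 on the log2 scale (edgeR adjusted p = 0.0030). Mesenchymal markers also moved with the treatment. Of 10 tested 4 were lower and 1 higher, and they summed to between 7228 and 7632 CPM in IFN-gamma libraries and between 9769 and 10070 CPM in untreated libraries, mostly from Vim (-0.49 ± 0.05, adjusted p = 4.1e-11). Col3a1 fell by 1.83 and Fn1 by 0.73. Log2 fold changes of the 10 mesenchymal markers ran from -1.83 to 0.60, with 7 negative and 3 positive. Markers of T, NK and B cells summed to between 0.335 and 0.652 CPM in IFN-gamma libraries and between 0.105 and 0.214 CPM in untreated libraries, and endothelial markers to at most 2.41 CPM in any library. Of 12 myeloid markers 10 stayed under 1 CPM in every library, with Fcgr1 and Aif1 at 0. The exceptions were Cd14, which did not pass, and Cd68, which rose to 10.7 ± 2.3 CPM in IFN-gamma libraries, against 6.37 ± 1.2 CPM in untreated libraries (log2 fold change 0.73, adjusted p = 0.023). The Cd68 call was lost without IFN-gamma replicate 2 or untreated replicates 1 or 2 (adjusted p up to 0.156). The myeloid list summed to between 46.9 and 56.9 CPM in IFN-gamma libraries and between 39.7 and 48.5 CPM in untreated libraries. The part of these markers in the results was not tested.

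In a dividing cell, cyclin-dependent kinase 1 with cyclins A and B starts mitosis, condensin and topoisomerase II compact and untangle the chromosomes, and kinesins and other microtubule proteins build the spindle. Kinetochores attach chromosomes to it, the spindle checkpoint holds division until every kinetochore is attached, and the anaphase-promoting complex then releases the sister chromatids by destroying securin and cyclin B. Most of these genes are transcribed only late in the cycle, through promoters that carry CCAAT boxes, bound by NF-Y, and a cell cycle genes homology region (CHR), bound by the MuvB complexes. In bulk RNA, fewer cells in G2 and mitosis and less of each transcript per cell cannot be told apart.

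After IFN-gamma the fold changes of the mitotic genes were mostly negative and small. In edgeR's quasi-likelihood test over all 12191 rows with enough counts, all 55 were tested, 18 were lower, 1 was higher and 36 did not pass an adjusted p of 0.05. Lower calls made up 32.7% of the 55, against 7.56% of all rows tested, and calls in either direction made up 34.5%, against 17.4%. A higher call was made for 9.88% of all rows. Every library with IFN-gamma lay below every untreated library for 29 of the 55 genes (52.7%), against 15.6% of all rows, and above for 1 gene, against 16.2%. Groups did not overlap in either direction for 31.8% of all rows. The median log2 fold change (IFN-gamma over untreated) of the 55 genes was -0.15, against -0.01 for all rows tested, and 49 of the 55 values were negative. Genes called lower fell by 0.20 to 0.49 on the log2 scale, the largest fall being 28.6%.

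Counts are more precise for abundant genes, and 54 of the 55 had a mean of at least 10 CPM. Among rows of at least 10 CPM tested on their own, 19 of 54 mitotic genes were lower and 1 higher, against 10.1% of those rows lower. The scaling moved the counts: 26 genes were lower and 1 higher under upper-quartile factors, where 18.9% of all rows were called, and 23 were lower and 1 higher under total counts alone, where 18.3% were called. Under these scalings 957 and 991 of all rows were higher and 1343 and 1238 lower, against 1204 higher and 922 lower with TMM factors. A change of scaling shifts all genes alike, and the median of all rows was -0.06 under upper-quartile factors and -0.05 under total counts alone. Without untreated replicate 2 only 11 genes were lower, and without each other library in turn between 12 and 16. Calls over all rows moved too. There were 700 lower without untreated replicate 2 and between 654 and 1014 without each other library, against 922 with all libraries.

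**Figure D1:**
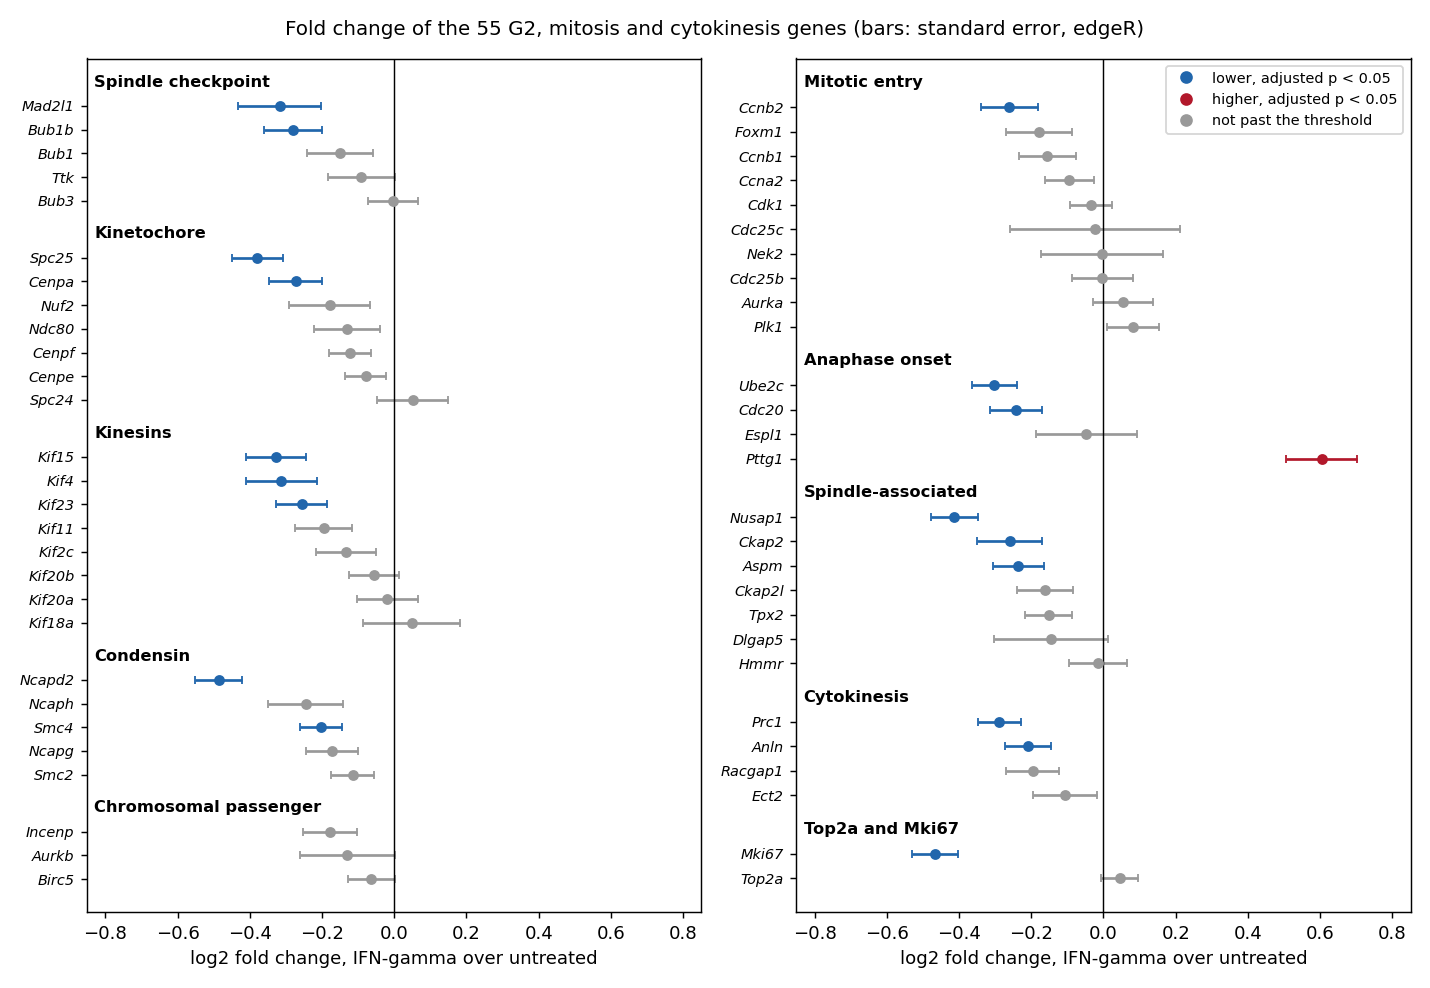
Log2 fold change (x axis, IFN-gamma over untreated, from edgeR) of each of the 55 genes, grouped by role and sorted within it, with bars for the standard error. Blue points are the 18 genes called lower, the red point is Pttg1, the 1 gene called higher, and grey points did not pass.

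The promoters show what these genes share in sequence. RefSeq promoter windows (GRCm38.p6, from 250 bases before to 50 bases after the annotated start) were at hand for 45 of the 55 genes. The stretches below are the 180 bases before the start of 3 genes lower under every alternative with both motifs in that stretch (Mki67, Ncapd2, Ube2c), of Top2a, which did not pass, and of Pttg1, the gene that rose. Capitals mark the CHR, TTTGAA or its reverse complement TTCAAA, and the NF-Y box, CCAAT or its reverse complement ATTGG.
Mki67 (chr7:135716380-135716559, minus strand): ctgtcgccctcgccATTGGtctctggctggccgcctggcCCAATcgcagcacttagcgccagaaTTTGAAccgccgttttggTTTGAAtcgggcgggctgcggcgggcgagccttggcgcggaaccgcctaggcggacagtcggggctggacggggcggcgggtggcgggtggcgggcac
Ncapd2 (chr6:125191587-125191766, minus strand): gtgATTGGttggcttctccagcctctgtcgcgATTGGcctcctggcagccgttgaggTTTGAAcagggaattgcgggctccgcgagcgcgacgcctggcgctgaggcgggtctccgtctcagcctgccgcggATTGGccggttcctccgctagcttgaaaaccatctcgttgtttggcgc
Ube2c (chr2:164769749-164769928, plus strand): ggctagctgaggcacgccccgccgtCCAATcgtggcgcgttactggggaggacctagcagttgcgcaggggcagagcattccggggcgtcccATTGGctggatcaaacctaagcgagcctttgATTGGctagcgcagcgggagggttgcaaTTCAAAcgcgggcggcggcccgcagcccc
Top2a (chr11:99024190-99024369, minus strand): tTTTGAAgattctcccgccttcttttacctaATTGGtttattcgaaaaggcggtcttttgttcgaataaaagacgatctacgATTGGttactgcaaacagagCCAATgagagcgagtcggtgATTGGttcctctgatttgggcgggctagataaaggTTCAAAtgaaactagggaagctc
Pttg1 (chr11:43425982-43426161, minus strand): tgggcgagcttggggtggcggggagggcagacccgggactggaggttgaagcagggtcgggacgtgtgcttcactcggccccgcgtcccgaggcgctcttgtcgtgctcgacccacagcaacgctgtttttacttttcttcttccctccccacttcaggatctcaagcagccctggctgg

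Counted over the whole window and both strands, TTTGAA stood in 33 of the 45 promoters (73.3%), against 18.1% of the 27025 genes with a window and 11.5% of the 9210 tested genes with one. CCAAT also stood in 33 of 45 (73.3%), against 37.9% of all genes and 39.3% of tested genes. Both stood together in 28 (62.2%), against 7.12% and 4.96%. The CHR variant TTCGAA was in 4 promoters (8.89%), against 1.57% and 2.11%. No match of 1 motif overlapped a match of another in these 45 promoters. CHR matches clustered at the start: 29 of 45 promoters (64.4%) had one within 50 bases of it on either side, against 4.92% of all genes with a window. TTTGAA stood in 15 of 17 promoters of genes called lower and 18 of 27 promoters of genes not called, and CCAAT in 13 of 17 and 20 of 27. The difference for TTTGAA depended on the window. In the last 150 bases before the start it stood in 6 of 17 (35.3%) and 10 of 27 (37%). These differences were not tested, and most promoters of either kind held each motif in the whole window. Neither motif was found in the windows of 7 genes: Pttg1, which rose, Nusap1 and Mad2l1, which fell, and Nuf2, Kif18a, Ncaph and Birc5, which did not pass.

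**Figure D2:**
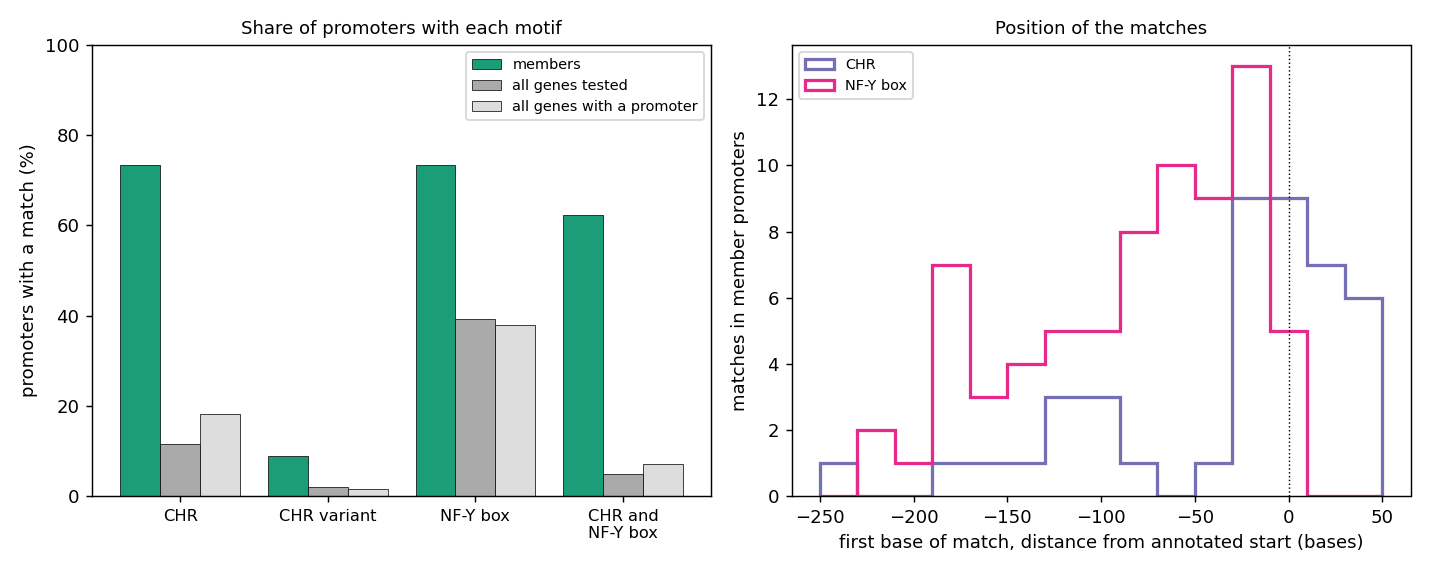
Left, the share of promoters (y axis, percent) with a match to the CHR, its variant, the NF-Y box, and the CHR and NF-Y box together, for the 45 mitotic genes with a window, the 9210 tested genes and all 27025 genes. Right, number of matches (y axis) by distance from the annotated start (x axis, bases) in the 45 promoters, with CHR matches gathered around the start and NF-Y boxes mostly before it.

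Counts by role, here and below, stand against 7.56% lower and 9.88% higher among all rows. Among 5 spindle checkpoint genes 2 were lower and 0 higher, with a median log2 fold change of -0.15. Bub1b, which encodes the checkpoint kinase-like protein BubR1, had 89.0, 83.6 and 102 CPM in IFN-gamma libraries, against 109, 115 and 109.8 CPM in untreated libraries. The groups did not overlap, and it fell by 0.28 ± 0.08 (adjusted p = 0.011). Mad2l1, whose protein MAD2 blocks the anaphase-promoting complex, had 36.8, 32.8 and 32.1 CPM in IFN-gamma libraries and 37.5, 44.6 and 45.1 CPM in untreated libraries, and fell by 0.32 ± 0.11 (adjusted p = 0.04975). IFN-gamma replicate 1 and untreated replicate 1 nearly touched. Its call was lost in 9 of 14 alternatives, among them the fits without IFN-gamma replicates 2 or 3 or untreated replicates 2 or 3 (adjusted p = 0.127, 0.125, 0.167 and 0.207). The Bub1b call was lost without IFN-gamma replicates 1 or 2 or untreated replicate 2 (adjusted p = 0.057, 0.086 and 0.0599). The kinase genes Bub1 (-0.15 ± 0.09) and Ttk (-0.09 ± 0.09) did not pass, and Bub3, the partner of BUB1 and BubR1, had -0.00 ± 0.07, with a 95% interval from -0.14 to 0.13. The count ratio of Bub1b to Bub3, which needs no scaling and was chosen after its values were seen, was 0.455, 0.484 and 0.517 in IFN-gamma libraries and 0.547, 0.632 and 0.592 in untreated libraries. Count ratios were computed for 10 pairs, none tested; those of 2 pairs overlapped between groups, Kif15 to Kif11 (from 0.92 to 1.1 in IFN-gamma libraries and from 0.935 to 1.26 in untreated libraries) and Ccnb2 to Cdk1 (from 0.234 to 0.273 and from 0.263 to 0.336).

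Of 7 kinetochore genes 2 were lower and 0 higher, with a median of -0.13. Spc25, a subunit of the microtubule-binding NDC80 complex, had 117, 111 and 119 CPM in IFN-gamma libraries, against 154, 149.8 and 148 CPM in untreated libraries. These levels were well separated, and Spc25 fell by 0.38 ± 0.07 (adjusted p = 8.0e-05). Cenpa, the histone H3 variant that marks centromeres, had 143, 119.7 and 137 CPM in IFN-gamma libraries and 159, 172 and 153 CPM in untreated libraries, a fall of 0.27 ± 0.07 (adjusted p = 0.0067). The Cenpa call was lost without IFN-gamma replicate 2 or untreated replicate 2 (adjusted p = 0.073 and 0.074).

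The other subunits of the NDC80 complex did not pass. Ndc80 had -0.13 ± 0.09, Nuf2 -0.18 ± 0.11 and Spc24, the direct partner of Spc25, 0.05 ± 0.10, a value that turned negative under some alternatives. The count ratio of Spc25 to Spc24 was 2.27, 2.03 and 2.09 in IFN-gamma libraries and 2.97, 2.66 and 2.99 in untreated libraries, so these partners moved unequally. This pair was chosen after its values were seen, and the difference was not tested. The large kinetochore proteins encoded by Cenpe, a kinesin-like motor, and Cenpf had small values of -0.08 ± 0.06 and -0.12 ± 0.06, although Cenpf passed under upper-quartile factors (adjusted p = 0.037). Cenpe had 442 ± 19 CPM in IFN-gamma libraries and 467 ± 13 CPM in untreated libraries.

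Of 8 kinesin genes 3 were lower and 0 higher, with a median of -0.16. Kif15, a plus-end motor that can stand in for Kif11 in keeping spindle poles apart, had 82.7, 99.0 and 92.9 CPM in IFN-gamma libraries and 125, 113 and 106 CPM in untreated libraries. It fell by 0.33 ± 0.08 (adjusted p = 0.0035). Kif4, a motor of chromosome arms and the central spindle, had 47.5, 55.5 and 52.3 CPM in IFN-gamma libraries and 67.6, 58.7 and 66.0 CPM in untreated libraries, and fell by 0.31 ± 0.10 (adjusted p = 0.0205). In both genes the groups did not overlap but came close. Kif23, the motor subunit of centralspindlin, had 145, 165 and 152 CPM in IFN-gamma libraries and 171, 184 and 196 CPM in untreated libraries, a fall of 0.26 ± 0.07 (adjusted p = 0.0074).

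All 3 kinesin calls were lost without IFN-gamma replicate 1 (adjusted p = 0.055 for Kif15, 0.138 for Kif4 and 0.071 for Kif23), so that no kinesin gene passed there. Those of Kif15 and Kif4 were also lost without untreated replicate 1 (adjusted p = 0.061 and 0.103), and those of Kif4 and Kif23 without untreated replicate 3 (adjusted p = 0.085 and 0.087). Kif11, the main motor of spindle bipolarity, had -0.20 ± 0.08 and passed only under upper-quartile factors and total counts alone (adjusted p = 0.025 and 0.036). Kif2c, a microtubule depolymerase, had -0.13 ± 0.08. Kif20a, a motor that carries the passenger complex to the midzone, Kif20b and Kif18a, which limits chromosome oscillation, lay between -0.06 and 0.05.

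Of 5 condensin genes 2 were lower and 0 higher, with a median of -0.20. In all 5 every IFN-gamma library was below every untreated one, as in 15.6% of all rows. Ncapd2, a regulatory subunit of condensin I, had 188, 182 and 208 CPM in IFN-gamma libraries, against 257, 282 and 271 CPM in untreated libraries. It fell by 0.49 ± 0.07 (adjusted p = 1.8e-07), or by 28.6%, more than any other of the 55 genes. Smc4, a core ATPase subunit shared by both condensins, had 986, 1021 and 839 CPM in IFN-gamma libraries and 1077, 1118 and 1080.0 CPM in untreated libraries, and fell by 0.20 ± 0.06 (adjusted p = 0.012). Its call was lost without IFN-gamma replicate 3, the lowest library (log2 fold change -0.12, adjusted p = 0.0695), and without untreated replicate 2 (adjusted p = 0.085). The remaining values were -0.25 ± 0.10 for Ncaph, -0.17 ± 0.07 for Ncapg and -0.12 ± 0.06 for Smc2, none past the threshold. With upper-quartile factors all 5 condensin genes passed. The count ratio of Ncapd2 to Smc2 was 0.446, 0.43 and 0.55 in IFN-gamma libraries and 0.604, 0.646 and 0.584 in untreated libraries, so the regulatory subunit was lower relative to the core subunit in each IFN-gamma library. This pair too was picked from its values.

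The chromosomal passenger complex, which corrects wrong attachments, had 0 of 3 members past the threshold. Incenp, its scaffold, had -0.18 ± 0.07, the kinase gene Aurkb -0.13 ± 0.13 and Birc5, which encodes survivin, -0.06 ± 0.07. By edgeR 1 of the 3, Incenp, had an unadjusted p under 0.05, and DESeq2 and limma called 0. Its 95% interval ran from -0.33 to -0.03, and it passed under upper-quartile factors and total counts alone (adjusted p = 0.029 and 0.033).

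Genes of mitotic entry had the median nearest to 0 of the roles. Of 10 members 1 was lower (10%, near the 7.56% of all rows) and 0 were higher, with a median of -0.03. Cdk1, the kinase that drives mitosis, had 381, 384 and 403 CPM in IFN-gamma libraries and 394, 385 and 417 CPM in untreated libraries. These ranges overlapped, and its log2 fold change of -0.04 ± 0.06 had a 95% interval from -0.15 to 0.08. Ccnb2 (cyclin B2) had 104, 102 and 94.4 CPM in IFN-gamma libraries and 121, 129 and 109.7 CPM in untreated libraries, and fell by 0.26 ± 0.08 (adjusted p = 0.015). That call was lost without IFN-gamma replicate 3 or untreated replicates 1 or 2 (adjusted p = 0.051, 0.059 and 0.13). Ccnb1 (cyclin B1) had -0.16 ± 0.08, Ccna2 (cyclin A2) -0.09 ± 0.07 and Foxm1, a transcription factor of G2 genes, -0.18 ± 0.09. For these 3 genes the groups did not overlap, yet none passed in any alternative.

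Plk1, the kinase of many mitotic steps, had 201, 238 and 237 CPM in IFN-gamma libraries and 194, 233 and 213 CPM in untreated libraries, with 0.08 ± 0.07 and an interval from -0.06 to 0.23. The spindle pole kinase gene Aurka had 0.05 ± 0.08, and the phosphatase gene Cdc25b, which activates Cdk1, -0.00 ± 0.08. Nek2 and Cdc25c drew few reads, with means of 15.5 and 8.14 CPM in IFN-gamma libraries and 15.7 and 8.29 CPM in untreated libraries. Their intervals were wide, from -0.35 to 0.34 and from -0.50 to 0.45, so falls of 0.20 to 0.30, as in many genes called lower, lie inside both.

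Genes of anaphase onset went both ways. Pttg1, which encodes securin, the inhibitor of separase, had 68.4, 64.4 and 67.5 CPM in IFN-gamma libraries, against 48.2, 42.3 and 41.2 CPM in untreated libraries. It rose by 0.60 ± 0.10 (adjusted p = 8.3e-06), a 1.52-fold increase, and passed under each of 14 alternatives (log2 fold change from 0.55 to 0.68). Espl1, the separase that securin holds in check, had 23.2, 20.4 and 22.3 CPM in IFN-gamma libraries and 21.6, 23.0 and 23.6 CPM in untreated libraries (-0.05 ± 0.14, interval from -0.33 to 0.23). The count ratio of Pttg1 to Espl1 was 2.95, 3.15 and 3.03 in IFN-gamma libraries and 2.23, 1.84 and 1.74 in untreated libraries. This ratio, which no scaling affects, was higher in each IFN-gamma library than in any untreated one; the pair was chosen after its values were seen.

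The other members of that role fell. Ube2c, the ubiquitin-conjugating enzyme of the anaphase-promoting complex, had 245, 226 and 243 CPM in IFN-gamma libraries and 281, 299.9 and 299 CPM in untreated libraries, and fell by 0.30 ± 0.06 (adjusted p = 0.00028). Its groups were clearly apart. Cdc20, the complex's activator, had 135, 133 and 158 CPM in IFN-gamma libraries and 170.0, 167 and 167 CPM in untreated libraries, and fell by 0.24 ± 0.07 (adjusted p = 0.014). IFN-gamma replicate 3 was nearest to the untreated libraries. The Cdc20 call was lost without IFN-gamma replicates 1 or 2 or untreated replicate 1 (adjusted p = 0.094, 0.075 and 0.056).

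**Figure D3:**
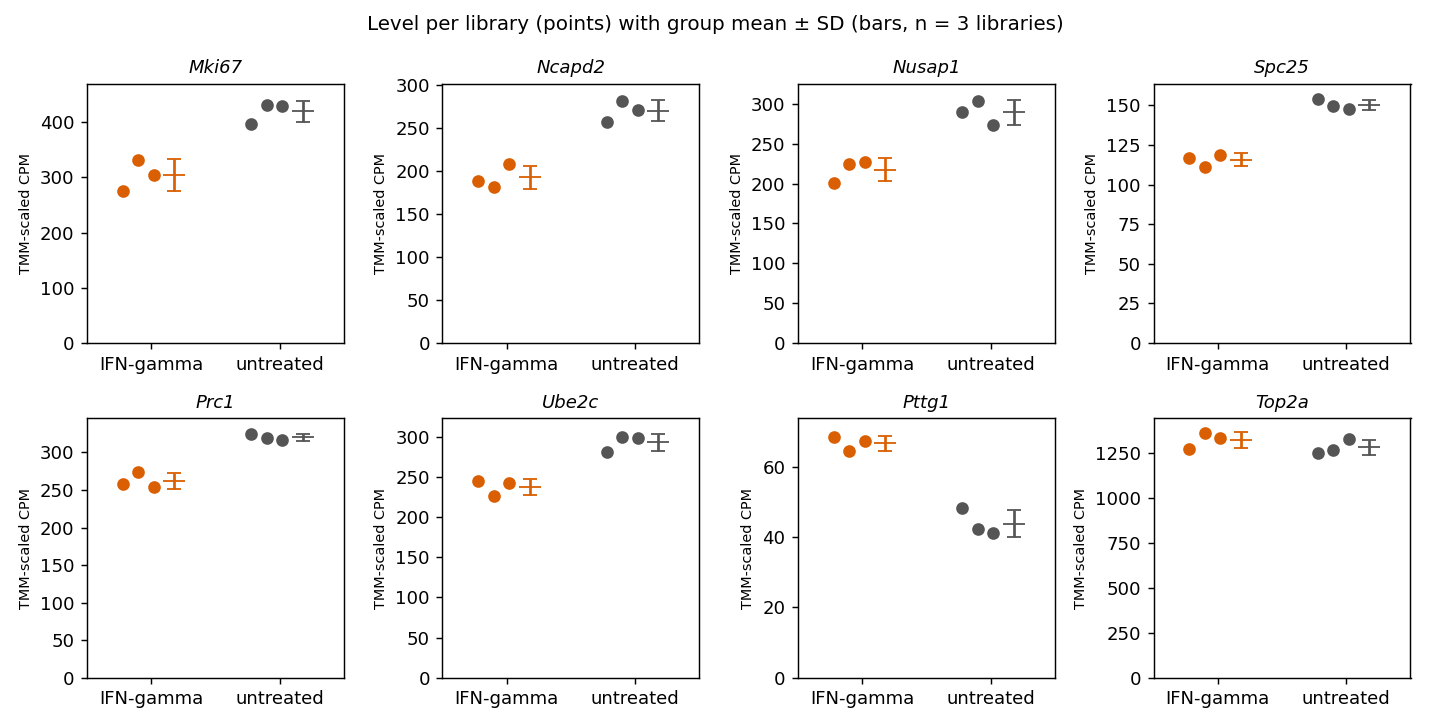
TMM-scaled CPM (y axis, from 0) of 8 genes in each library (points) with the group mean ± SD (n = 3). Mki67, Ncapd2, Nusap1, Spc25, Prc1 and Ube2c lay lower in all IFN-gamma libraries, Pttg1 lay higher, and Top2a overlapped.

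Of 7 genes of spindle-associated proteins 3 were lower and 0 higher, with a median of -0.16. Nusap1, a microtubule-stabilising protein of the chromatin-driven spindle, had 201, 225 and 227 CPM in IFN-gamma libraries, against 291, 304 and 273 CPM in untreated libraries. The separation was wide, and it fell by 0.41 ± 0.06 (adjusted p = 3.9e-06). Aspm, a spindle pole protein, had 124, 129.9 and 123 CPM in IFN-gamma libraries and 146, 145 and 153 CPM in untreated libraries, and fell by 0.24 ± 0.07 (adjusted p = 0.014). Its call was lost without IFN-gamma replicate 1 or untreated replicate 3 (adjusted p = 0.063 and 0.095).

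Ckap2, a microtubule nucleation factor, passed narrowly. It had 128, 90.1 and 116 CPM in IFN-gamma libraries and 132, 136 and 133 CPM in untreated libraries, a fall of 0.26 ± 0.09 (adjusted p = 0.045). Without IFN-gamma replicate 2, the lowest, its log2 fold change was -0.13 (adjusted p = 0.34). The call was also lost without IFN-gamma replicate 3 or untreated replicates 1, 2 or 3 (adjusted p = 0.079, 0.112, 0.151 and 0.102), and with DESeq2 on all libraries (adjusted p = 0.072). Tpx2, an activator of Aurora A, had -0.15 ± 0.06 and passed without IFN-gamma replicate 3, with upper-quartile factors and with total counts alone (adjusted p = 0.0092, 0.023 and 0.033). Ckap2l, Dlgap5 and Hmmr had values of -0.16, -0.15 and -0.01.

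Of 4 cytokinesis genes 2 were lower and 0 higher, with a median of -0.20. Prc1, which bundles the microtubules of the central spindle, had 258, 275 and 253 CPM in IFN-gamma libraries, against 325, 319 and 316 CPM in untreated libraries. It fell by 0.29 ± 0.06 (adjusted p = 0.00037), with a wide gap between groups. Anln, the scaffold anillin of the contractile ring, had 212, 191 and 207 CPM in IFN-gamma libraries and 232, 237 and 236 CPM in untreated libraries, and fell by 0.21 ± 0.06 (adjusted p = 0.017). The Anln call was lost without IFN-gamma replicate 2 or untreated replicates 2 or 3 (adjusted p = 0.102, 0.068 and 0.066). Racgap1, the partner of Kif23 in centralspindlin, had -0.20 ± 0.07 (adjusted p = 0.057). It passed in 5 alternatives: without IFN-gamma replicate 3 (adjusted p = 0.011), with upper-quartile factors, with total counts alone, among rows of at least 10 CPM and with the replicate block (adjusted p = 0.013, 0.019, 0.043 and 0.048). Ect2, the exchange factor that centralspindlin recruits to start the furrow, had -0.11 ± 0.09.

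The common proliferation markers Mki67 and Top2a parted. Mki67, whose protein Ki-67 coats mitotic chromosomes, had 275, 332 and 305 CPM in IFN-gamma libraries, against 397, 432 and 430.2 CPM in untreated libraries. It fell by 0.47 ± 0.06 (adjusted p = 2.8e-07), or by 27.6%, and passed under each of 14 alternatives. Top2a, the topoisomerase that untangles sister chromatids, had 1273, 1363 and 1335 CPM in IFN-gamma libraries and 1250.0, 1271 and 1329 CPM in untreated libraries. These overlapped, and its 0.04 ± 0.05 had an interval from -0.06 to 0.15 and changed sign among the alternatives. The count ratio of Mki67 to Top2a was 0.216, 0.244 and 0.228 in IFN-gamma libraries and 0.318, 0.34 and 0.324 in untreated libraries. This ratio, chosen after its values were seen, was 0.701 times as high on average with IFN-gamma as without.

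Set side by side, the roles had medians of -0.21 (Mki67 and Top2a), -0.20 (condensin), -0.20 (cytokinesis), -0.16 (kinesins), -0.16 (spindle-associated), -0.15 (checkpoint), -0.15 (anaphase onset), -0.13 (kinetochore), -0.13 (passenger complex) and -0.03 (mitotic entry). Whether roles differed from each other was not tested, and leaving out 1 library moved several by as much as they lie apart: checkpoint genes ranged from -0.24 to -0.08, kinesins from -0.19 to -0.10 and mitotic entry from -0.07 to -0.03. In kinesin genes the median shift from the untreated mean was -0.19, -0.15 and -0.13 in the 3 IFN-gamma libraries, and in condensin genes it was -0.16, -0.16 and -0.22. Checkpoint genes were less even, with -0.03, -0.30 and -0.14, and kinetochore genes had -0.14, -0.08 and -0.24. Over all 55 genes the median shift was -0.15, -0.15 and -0.18 in IFN-gamma replicates 1, 2 and 3, with 46, 45 and 46 genes below the untreated mean. Among untreated libraries it was -0.04, 0.03 and 0.00. All 55 genes summed to 9443 ± 144 CPM in IFN-gamma libraries and 10470 ± 186 CPM in untreated libraries, a ratio of 0.902.

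**Figure D4:**
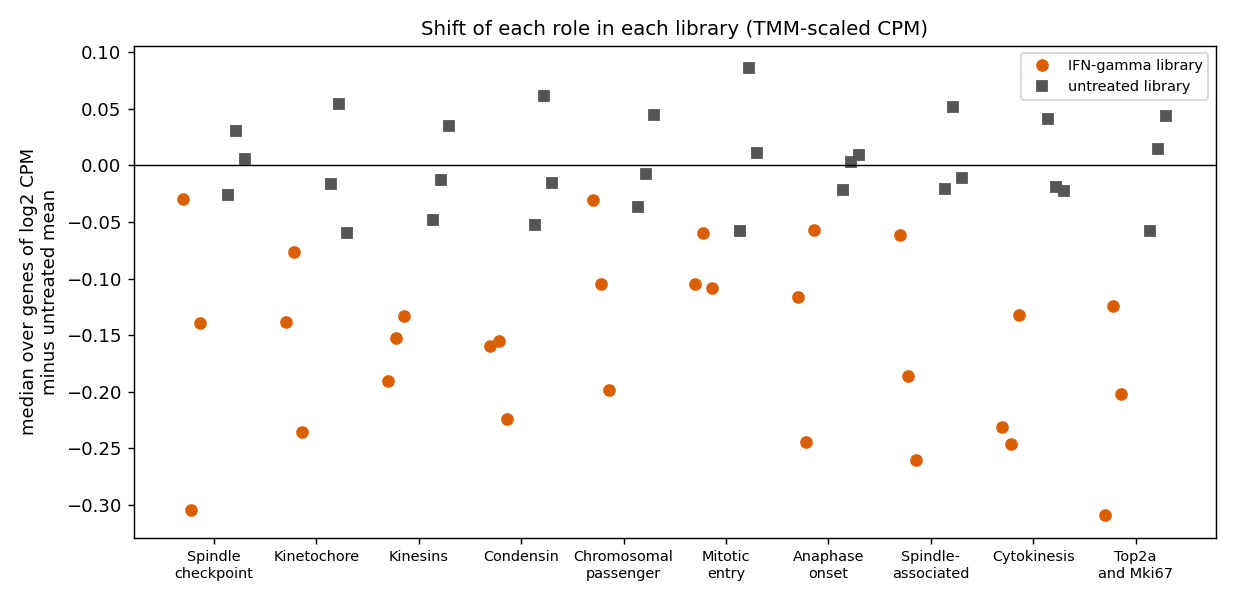
Median over the genes of a role of log2 TMM-scaled CPM minus that gene's untreated mean (y axis), by role (x axis), in each IFN-gamma library (circles) and untreated library (squares). In every role but the chromosomal passenger complex all IFN-gamma libraries lay below all untreated ones. Among IFN-gamma libraries kinesin genes ranged from -0.19 to -0.13 and checkpoint genes from -0.30 to -0.03.

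Other genes of the same machinery were taken from textbook lists, whose counts stand against 7.56% lower and 17.4% called among all rows. Of 26 tested further kinetochore and centromere genes 4 were lower and 1 higher (19.2% called), with a median of -0.13. Without untreated replicate 1 only 2 passed. Hjurp, the chaperone that deposits CENP-A at centromeres, fell by 0.35 ± 0.07 to 165 ± 6.9 CPM in IFN-gamma libraries, against 211 ± 8.1 CPM in untreated libraries (adjusted p = 8.3e-05). Zwint, a kinetochore protein of the KNL1 arm, rose by 0.24 ± 0.07 to 183 ± 6.6 CPM, against 155 ± 2.1 CPM in untreated libraries (adjusted p = 0.0074). Of 10 tested further checkpoint genes edgeR called 0 in either direction, with a median of 0.01. With all libraries 1 of these, Kntc1, a subunit of the complex that brings the checkpoint to kinetochores, had an unadjusted p under 0.05 (-0.36, adjusted p = 0.05997), and DESeq2 and limma called 0. Kntc1 passed with upper-quartile factors, with total counts alone, among rows of at least 10 CPM and without IFN-gamma replicate 3 (smallest adjusted p = 0.027).

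Among 15 tested other kinesin genes, most of them cargo motors, 1 was lower and 2 were higher (20.0% called). Kif3a, a motor of cilia, fell by 0.49 ± 0.08 (adjusted p = 2.8e-05), while the light chain gene Klc1 and the heavy chain gene Kif5b of conventional kinesin had 0.24 ± 0.06 and 0.21 ± 0.06. The Klc1 call was lost without untreated replicate 2 and the Kif5b call without untreated replicate 1 (adjusted p = 0.062 and 0.052). With upper-quartile factors the Kif5b call was lost as well (adjusted p = 0.05015). Kif18b had the lowest value of the list, -0.60 ± 0.22, but its groups overlapped and it did not pass (adjusted p = 0.071). It passed in 6 of 14 alternatives. Of 15 condensin II and cohesin genes 2 were lower and 0 higher (13.3% called), with a median of -0.12. There were 6 called with upper-quartile factors and 5 with total counts alone, but only 1 without IFN-gamma replicate 1 or untreated replicates 2 or 3. Ncapg2, a condensin II subunit, fell by 0.32 ± 0.09 (adjusted p = 0.0065). The cohesin gene Rad21 fell by 0.19 ± 0.06 (adjusted p = 0.020). It no longer passed when IFN-gamma replicates 1 or 2 or untreated replicates 2 or 3 were left out (adjusted p = 0.103, 0.056, 0.064 and 0.157).

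Of 18 subunits and partners of the anaphase-promoting complex 2 were lower and 0 higher, with a median of -0.04. Their share lower, 11.1%, stood against 7.56% of all rows, and their share called, also 11.1%, against 17.4%. Anapc2 had -0.32 ± 0.09 and Anapc11 -0.20 ± 0.07 (adjusted p = 0.011 and 0.037). The Anapc2 call was lost without IFN-gamma replicate 1 or untreated replicates 2 or 3 (adjusted p = 0.061, 0.072 and 0.056), and that of Anapc11 without IFN-gamma replicates 1 or 3 or untreated replicates 2 or 3 (adjusted p = 0.118, 0.065, 0.142 and 0.176). Of 45 further mitotic genes 4 were lower and 1 higher, with a median of -0.12. Their share lower, 8.89%, was near that of all rows, and their share called, 11.1%, below it. Without IFN-gamma replicate 3 there were 8 called, and without untreated replicate 1 there were 2. The tubulin-binding stathmin gene Stmn1 fell by 0.32 ± 0.07 and the mitotic kinase gene Pbk by 0.46 ± 0.10 (adjusted p = 0.00036 and 0.00056), and Depdc1a by 0.65 ± 0.16 (adjusted p = 0.0043). Without untreated replicate 1 the Depdc1a call was lost (log2 fold change -0.47, adjusted p = 0.063).

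Regulators of cell cycle transcription and inhibitors of cyclin-dependent kinases had 10 of 27 genes lower and 1 higher (40.7% called, against 17.4% of all rows), with a median of -0.14. Without IFN-gamma replicate 2 or untreated replicate 2 there were 7 called, and the median was -0.22 without untreated replicate 1. E2f1, an activator of S phase genes, fell by 0.38 ± 0.07 to 134 ± 12 CPM, against 174 ± 2.1 CPM in untreated libraries (adjusted p = 9.8e-05). The inhibitor genes Cdkn1c (p57) and Cdkn2c fell by 0.78 ± 0.19 and 0.35 ± 0.09 (adjusted p = 0.0027 and 0.0029), Cdkn1c with few reads, at 8.30 ± 0.31 CPM, against 14.3 ± 1.2 CPM in untreated libraries. Without IFN-gamma replicate 2 the Cdkn2c call was lost (adjusted p = 0.055). Cdkn1a, which encodes the kinase inhibitor p21, had 1209 ± 67 CPM in IFN-gamma libraries and 1405 ± 99 CPM in untreated libraries, and fell by 0.22 ± 0.06 (adjusted p = 0.0039). That call was lost without IFN-gamma replicate 1 or untreated replicate 3 (adjusted p = 0.051 and 0.073). Mybl2, the B-Myb partner of MuvB at G2 promoters, had -0.07 ± 0.16 and did not pass. The gene called higher was Lin54 of the MuvB complex (0.38 ± 0.12, adjusted p = 0.022). Of the NF-Y genes Nfya was lower (-0.50 ± 0.17, adjusted p = 0.034), while Nfyb and Nfyc did not pass. The Lin54 and Nfya calls each held in 9 of 14 alternatives. Other MuvB genes (Lin9, Lin37, Lin52 and Rbbp4) did not pass. Lin37 had -0.52 ± 0.19 (adjusted p = 0.051) and Lin52 -0.67 ± 0.32 (adjusted p = 0.165), both with few reads. Lin37 passed with upper-quartile factors, with total counts alone and among rows of at least 10 CPM. Lin9 and Rbbp4 had -0.13 ± 0.13 and 0.02 ± 0.06. Rb1 and Rbl2 were lower (-0.39 ± 0.11 and -0.32 ± 0.10). The part of these regulators in the changes was not tested.

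Reads of overlapping genes are uncertain, because the sources used here do not say whether counting used strand. In the GENCODE M21 annotation 11 of the 55 genes share exon sequence with another gene of the table, nearly always on the opposite strand. For genes called lower the partners of Ube2c, Prc1 and Ncapd2 (Tnnc2, Rccd1 and Scarna10) had only 4, 38 and 6 counts in all libraries, against 14398, 15779 and 12472 counts of the genes themselves. Those of Nusap1 (Oip5, 1288 counts against 13650), Kif4 (Pdzd11, 2725 against 3142) and Cdc20 (Elovl1, 8427 against 8391) were larger shares, with log2 fold changes of -0.21, 0.10 and -0.18, none past the threshold. Lcorl, opposite Ncapg, was lower by itself (log2 fold change -0.23, adjusted p = 0.049), with 4319 counts against 7242, and Exosc9, opposite Ccna2, was higher (0.31, adjusted p = 0.027), with 2775 counts against 8142. Named pseudogene copies exist for Ccnb1, Ccnb2 and Kif4, so reads of these genes may have been divided.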

How the data were processed

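RNA-seq was deposited as 1 table of gene counts for 6 TC-1 libraries. The counts deposited by the authors are raw whole numbers per gene, and the log2 values deposited by the authors are normalized by a method that is not given in the sources used here. Per the submitters' processing notes Bowtie2 and edgeR were used, with the human build hg19 named for mouse samples, so no coordinates were taken from the study. The labels name 2 library kits, a stranded one and one that reads 3' ends, without saying which gave these counts. Where counts or CPM of different genes stand side by side, they are therefore shares of reads, not transcript abundances.

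Every row with enough counts entered the quasi-likelihood test of edgeR 4.0.16 under R 4.3.3 (filterByExpr for low counts, TMM scaling, robust dispersions, no covariate, Benjamini-Hochberg over 12191 rows, threshold 0.05; biological coefficient of variation 0.0871). Standard errors are the size of the log2 fold change over the root of F, and intervals come from the fit's degrees of freedom. The test was run on counts simulated from the dispersions estimated here. Its recovery of changes as small as those of the mitotic genes is not reported here. All library pairs of a group differed by more than sampling noise. Alternatives used upper-quartile factors, total counts, no filter, at least 10 CPM, thinned counts, DESeq2 1.42.0, limma 3.58.1 on the deposited log2 values, a replicate block, and each library left out.

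The genes, lists and roles were chosen with earlier results of these data known. Named genes were all members past the threshold, leading members of each role, and up to 3 called genes of at least 10 CPM from each other list by adjusted p; others were chosen after their values were seen. Promoters are RefSeq's (GRCm38.p6), the first window listed per gene. Results for some items that the rule would name are not reported here.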

Additional observations from a re-analysis of the deposited data

How the results depend on the processing

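Of the 19 mitotic genes called, 7 (Mki67, Ncapd2, Nusap1, Spc25, Prc1, Ube2c and Pttg1) passed under all 14 alternatives. The other 12 lost their call in at least 1 (adjusted p from 0.0512 to 0.345), 34 times in fits that left out a library, with 1 sample fewer, and 6 times in others. Another 8 genes passed only in some alternatives. No call changed direction. Leaving out 1 library gave between 12 and 17 calls, 11 to 16 of them lower. Among all rows it gave between 1643 and 2312 calls, against 2126 with all libraries. Checkpoint genes had 0 to 2 calls, kinetochore genes 1 to 2, kinesin genes 0 to 3, condensin genes 1 to 2, and the other pathway genes 24 to 40, against 35 with all libraries. Checkpoint calls numbered 1, not 2, with no filter, thinned counts, the replicate block, DESeq2 or limma, where Mad2l1 just missed (adjusted p from 0.051 to 0.074), and condensin calls 5, not 2, with upper-quartile factors. The median of the mitotic genes was -0.20 with upper-quartile factors and -0.19 with total counts, by construction of the scaling, and their sum in IFN-gamma libraries was 9295 in CPM of total counts. TTTGAA stood in 35.6% of the promoters in the last 150 bases before the start, a window that leaves out the bases after the start. In that window it stood in 9.24% of all genes and 4.99% of tested genes. Deviations of same-numbered libraries had correlations of 0.003, 0.041 and -0.001, and those of other pairs lay between -0.028 and 0.028. Such correlations do not show whether same-numbered libraries shared a culture or day. With the replicate block 18 mitotic genes were lower and 1 higher; Mad2l1 lost its call (adjusted p = 0.058) and Racgap1 gained one (adjusted p = 0.048). Counting error weighs most on Cdc25c, with 58 to 93 counts a library.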

Other observations

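Genes of S phase and DNA replication, the step before the one described above, were listed as well. Of 30 tested 7 were lower and 0 higher, with a median log2 fold change of -0.16, and the 23.3% lower stand against 7.56% of all rows. Without untreated replicate 2 or 3 only 4 passed. Rrm1, the large subunit of ribonucleotide reductase, had 204 CPM in IFN-gamma libraries and 255 CPM in untreated libraries and fell by 0.32 ± 0.07 (edgeR adjusted p = 0.00033). Cdc6, a loader of replication origins, fell by 0.48 ± 0.11 (adjusted p = 0.0015) and the helicase subunit gene Mcm7 by 0.24 ± 0.06 (adjusted p = 0.0027). Without IFN-gamma replicate 1 the Mcm7 call was lost (adjusted p = 0.057).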
